A study of Homo sapiens with 14 samples.

Results

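LTR5A is one of the long terminal repeat (LTR) subfamilies of the HERVK endogenous retroviruses, and its integrants were followed here because the single guide RNA (sgRNA) used in this CRISPR interference (CRISPRi) experiment has almost no site in them. Members were all integrants of the transposable element (TE) tables whose name holds LTR5A, with or without a joined HERVK-int, the internal part of the provirus, and there were 258 of them among 4570939 integrants. Of these, 219 were LTR5A alone, 27 were joined to HERVK-int on 1 side, 9 had an LTR on both sides of HERVK-int and 3 were joined LTRs. Poly(A) RNA was sequenced in 12 bulk libraries of H9, an established human embryonic stem cell (hESC) line. The 2 hESC libraries come from undifferentiated cells whose labels mention no dCAS9-KRAB. The 3 endoderm control and 3 endoderm sgRNA libraries come from cells kept for 3 days with 100 ng/ml Activin A and with CHIR-99021 at 5 and then 0.5 µM. The 2 foregut control and 2 foregut sgRNA libraries come from cells given 3 more days with a commercial pancreatic progenitor kit. All 10 differentiated libraries carry lentiviral dCAS9-KRAB, selected with puromycin. The sgRNA libraries carry in addition a guide against LTR5, and the controls carry no guide.

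HERVK integrants entered the genome as proviruses with an LTR at either end, and recombination between the LTRs often left a solitary LTR behind. The LTR holds the promoter of the provirus and binding sites for transcription factors, and LTR5A, LTR5B and LTR5_Hs are related forms of it. dCAS9-KRAB is a cleavage-dead Cas9 fused to a KRAB domain, which recruits the TRIM28 and SETDB1 silencing machinery and so deposits repressive histone methylation where the guide pairs.

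The site of the guide, 20 bases and its NGG, shows how LTR5A departs from the other subfamilies. It is given below as found on the minus strand of an LTR5B integrant (hg19, chr19:53226814-53227799), followed by the aligned stretch in the 1 LTR5A integrant with a perfect site (LTR5A_248, minus strand, chrX:167838-168808) and in 4 of the 10 integrants with the highest mean level over the groups. These are LTR5A_10 (minus strand, chr6:52613077-52614103), LTR5A_2 (plus strand, chr4:4075831-4077040), LTR5A_7 (minus strand, chr11:71384714-71385914) and LTR5A_3 (plus strand, chr4:9659580-9669174). Capitals mark the stretch that lines up with bases 11 to 15 of the site, counted from 1 at its 5′ end.
LTR5B: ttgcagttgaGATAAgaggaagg
LTR5A_248: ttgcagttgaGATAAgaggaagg
LTR5A_10: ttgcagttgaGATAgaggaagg
LTR5A_2: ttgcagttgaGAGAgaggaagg
LTR5A_7: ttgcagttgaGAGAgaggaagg
LTR5A_3: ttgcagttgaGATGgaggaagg
The stretch of LTR5A_10 matches the first 14 bases of the site, lacks 1 base and matches the last 8. LTR5A_2 and LTR5A_7 differ in addition by T13G, and LTR5A_3 by A14G, with the site's base first.

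A perfect site next to NGG was found in 1 of 258 LTR5A integrants, against 105 of 417 LTR5B integrants (25.2%) and 130 of 608 LTR5_Hs integrants (21.4%). A further 56 LTR5B and 329 LTR5_Hs integrants had a best placement with 1 mismatch. With gaps allowed, 96 LTR5A integrants lay at an edit distance of 1 from the site, 82 at 2, 42 at 3 and 37 beyond 3. At least 1 base of the site was missing in the best alignment of 98.8% of LTR5A integrants, 50.7% of LTR5B integrants and 12.4% of LTR5_Hs integrants. Without gaps, the best placement next to any NGG on either strand had 9 mismatches in 184 LTR5A integrants and 7 to 14 in 255. It need not lie at the aligned stretch, and 2 integrants were left without such a placement. In LTR5A_10 the missing base lies next to the letters GATA, the core recognised by GATA factors such as GATA4 and GATA6. These letters stay whole in LTR5A_10, whereas T13G changes them in LTR5A_2 and LTR5A_7, and A14G in LTR5A_3. AGATAA, read on the strand of the guide site, stood in the aligned stretch of 1.55% of LTR5A, 47.2% of LTR5B and 27.6% of LTR5_Hs integrants. AGATAG stood there in 49.6%, 15.1% and 0.329%. TGATAA, searched on both strands of the whole integrant, was present in 86.8% of LTR5A, 22.1% of LTR5B and 10.4% of LTR5_Hs integrants. These matches describe letters only. The histogram of mismatches plots the ungapped count for all 3 subfamilies.

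**Figure D1:**
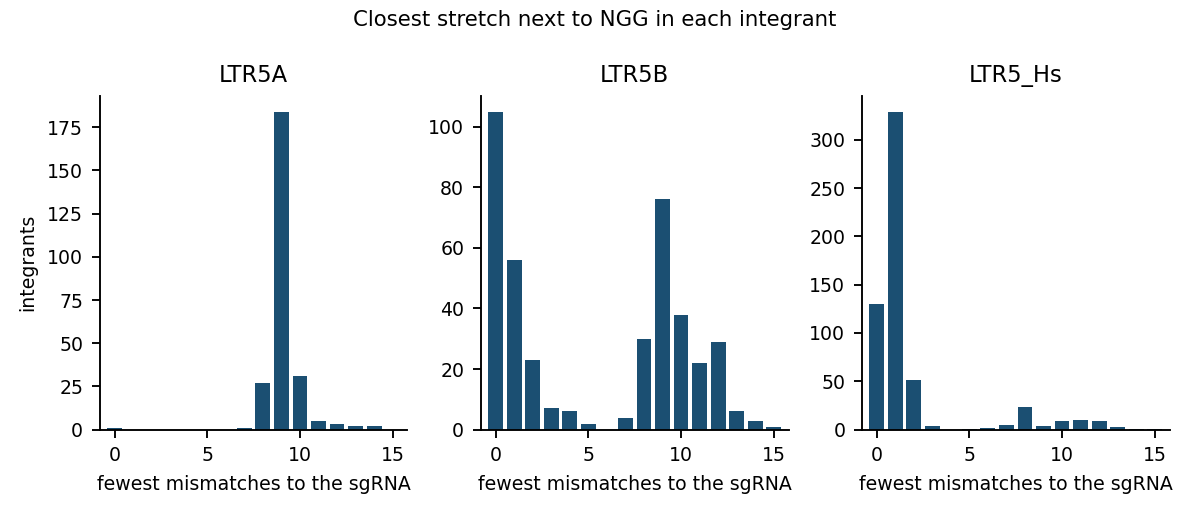
Number of mismatches to the sgRNA next to an NGG (x axis) against the number of integrants (y axis, with its own scale in each panel), for LTR5A, LTR5B and LTR5_Hs. LTR5A has 1 integrant of 258 at 0 mismatches and 184 at 9, whereas 25.2% of LTR5B and 21.4% of LTR5_Hs integrants are at 0.

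Depth ranged from 11583063 to 37152434 gene reads per library, and TE reads amounted to 1.21 to 2.01% of them. Reads per 1000000 gene reads (RPM) is the level used for integrants throughout, and counts per 1000000 gene reads (CPM) that for genes. 1 label field of the 4 foregut libraries repeats the text of other groups, and these libraries were grouped by their titles. All 6 endoderm markers rose from hESC to endoderm control. Over all genes tested, 26.0% were called, at an adjusted p under 0.05 and a fold over 2. The 4 hESC markers did not move together. POU5F1, a pluripotency factor, had means of 453 CPM in hESC, 734 in endoderm controls, 3.47 in foregut controls and 2.14 in foregut sgRNA libraries. NANOG had 26.6 in endoderm controls and 0 in foregut controls, whereas SOX2 had 23.4 and 165, and LIN28A 657 and 681. None of 3 foregut markers was called in edgeR between foregut and endoderm controls (29.0% of all genes were called). HNF4A, a foregut and liver regulator, had means of 14.4 CPM in endoderm controls and 31.5 in foregut controls. HHEX went the other way, from 50.6 to 32.7, and so did PROX1, from 7.83 to 2.16. Replicates of the foregut were uneven at integrants. Of 23 LTR5A integrants with at least 10 reads in 1 foregut control library, 11 had none in the other, as had 15 of 21 in the foregut sgRNA libraries, whereas 1 of 9 endoderm control and 0 of 12 endoderm sgRNA integrants lacked reads in another library of their group. Over all integrants these shares were 73.7% and 82.4% in the foregut groups and 4.61% and 7.66% in the endoderm groups. In bulk RNA, fewer cells of a type and less RNA per cell cannot be told apart.

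Most LTR5A integrants had no uniquely mapped read. No read fell on 169 of the 258 in any library, 52 reached 3 reads in a library, 33 reached 10, and 3 had reads in all 12. A single read was worth 0.0269 RPM in the deepest library and 0.0863 in the shallowest. The LTR5A sum was 5.44 and 5.36 RPM in the hESC libraries. It was 39.1, 47.3 and 62.8 in the endoderm controls, and 88.7, 91.6 and 110 in the endoderm sgRNA libraries. The foregut controls had 54.5 and 57.6, and the foregut sgRNA libraries 59.5 and 62.9. The hESC libraries were thus far below all others, and the endoderm sgRNA libraries above all others.

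Very few loci carried these sums. Ranked by their mean over the 5 groups, LTR5A_1 and LTR5A_2 together held 57.7 to 85.9% of the LTR5A reads of a library. In each of the 8 hESC and endoderm libraries, 1 locus, LTR5A_1, reached 50% of the reads, and in each of the 4 foregut libraries 2 loci were needed. For 80% of the reads, 1 to 5 loci sufficed. The same counts were 2 to 5 and 2 to 11 for LTR5B, and 2 to 7 and 4 to 19 for LTR5_Hs. The leading locus held 33.7 to 85.9% of the LTR5A reads, 16.0 to 47.8% of the LTR5B reads and 10.7 to 48.2% of the LTR5_Hs reads. Loci beyond the first 10 LTR5A integrants held 3.52 to 22.3%. Integrants joined to HERVK-int held 85.3 to 98.7% of the LTR5A reads, and LTR5A integrants alone summed to 0.297 and 0.621 RPM in hESC, 1.28 to 1.78 in the 6 endoderm libraries and 3.51 to 8.73 in the 4 foregut libraries. The stacked bars by library show this division.

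**Figure D2:**
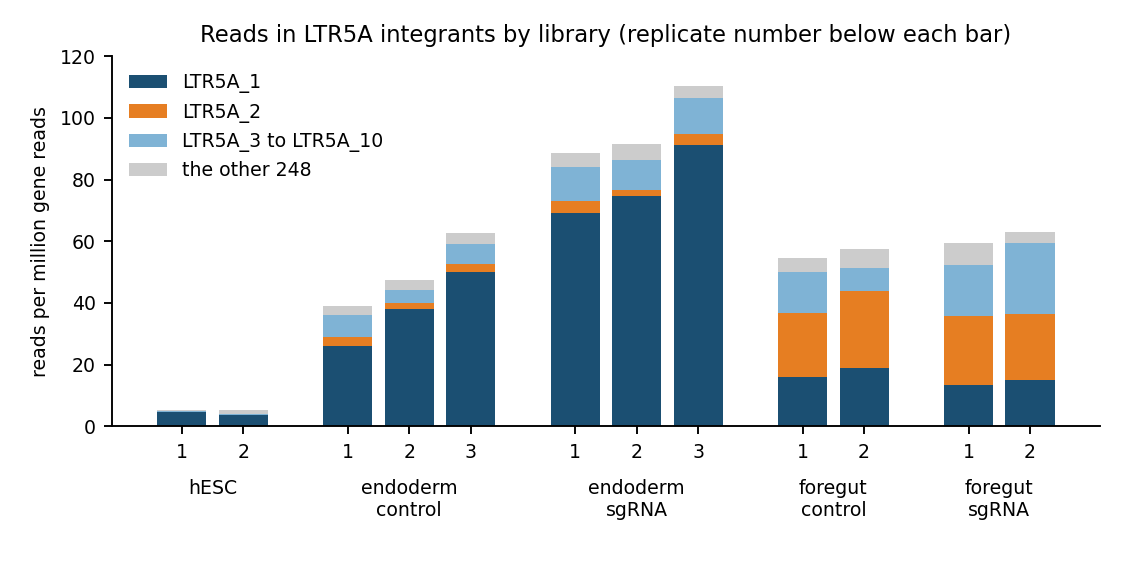
LTR5A sum in RPM (y axis) in each of the 12 libraries (x axis), stacked as LTR5A_1, LTR5A_2, LTR5A_3 to LTR5A_10 and all others. LTR5A_1 fills most of each hESC and endoderm bar, and LTR5A_2 is the largest part of each foregut bar.

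Of the 10 leading integrants, all but LTR5A_8 and LTR5A_10 lay in long noncoding RNAs. LTR5A_1 (chr8:12423309-12424512, HERVK-int joined to LTR5A, 1204 bp) lies in an intron of ENSG00000283674, and so does LTR5A_6 (chr8:12481415-12482613). LTR5A_2 lies in ENSG00000290888 and LTR5A_3, a full provirus of 9595 bp with an LTR5A at either end, in ENSG00000287117. LTR5A_4 (chr4:9036143-9037363) overlaps an exon of ENSG00000288075, LTR5A_7 an exon of ALG1L9P and LTR5A_9 (chr3:75586690-75587898) an exon of LINC02018. LTR5A_5 (chr3:75600465-75609150), another full provirus, lies in ENSG00000290410. LTR5A_8 (chr7:6899866-6900880) and LTR5A_10 lie outside genes, 405 bp from UNC93B2 and 782 bp past the 3′ end of GSTA2, a glutathione transferase of detoxification. Values of the long noncoding RNAs known only by an identifier were not analysed here. In all, 26 LTR5A integrants overlapped an exon and 102 a gene body.

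Sequence around the integrants set one group apart. Among the 2000-base flanks, 15 integrants on 4 chromosomes shared at least 90% identity over at least 1000 bases, and all 15 had reads. No like flank was found for 132 integrants, of which 35 had reads and 8 are joined to HERVK-int. Over all LTR5A integrants, reads fell on 22 of 27 joined to HERVK-int on 1 side and 6 of 9 with an LTR on both sides. They fell on 61 of 219 LTR5A alone. Flanks and the join to HERVK-int were not tested apart. The 15 are LTR5A_1, LTR5A_2, LTR5A_4, LTR5A_6, LTR5A_7, LTR5A_9 and 9 weaker loci, 14 of them are joined to HERVK-int, and their median length is 1206 bp. Of the 15, 13 lie within 5 kb of an RPS3A pseudogene, at a median of 3371 bp. They held 84.7% of all LTR5A reads, and 60.8 to 95.9% of those of a library. The largest such group, 37 solitary LTRs, held 3.20%. Copies this alike can lose reads to each other or to multiple mapping: the closest other member was 94.3 to 99.7% identical within the group, and 79.0% of the 75-base windows of LTR5A_1 and 77.0% of those of LTR5A_2 occurred in no other LTR5 integrant. The levels of copies that share sequence are therefore uncertain.

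Levels of LTR5A integrants in the endoderm controls were compared with those in hESC. The endoderm controls also carry dCAS9-KRAB and were selected with puromycin, which the hESC labels do not mention. Differentiation and this handling cannot be told apart in the comparison. The LTR5A sum rose from 5.40 ± 0.0521 RPM (SD, n = 2) to 49.7 ± 12.0 (SD, n = 3), with no overlap, a log2 fold change of 3.28 (SE 0.30) in edgeR's quasi-likelihood test and an adjusted p of 6.87e-08. Among 1065 TE names tested, 18.4% were called, 112 higher and 84 lower, the median name changed by -0.23, and LTR5A stood at place 10 by p. Of the related names, LTR5 had a log2 fold change of 3.09 (edgeR adjusted p 0.0161) and LTR5B one of 1.38 (edgeR adjusted p 0.00485). LTR5_Hs had -0.05 (edgeR adjusted p 0.914) and HERVK-int 1.87 (edgeR adjusted p 1.81e-05). HERVK-int is no separate measure, since LTR5A integrants held 77.3 to 85.1% of its reads in the endoderm controls.

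Of 20 LTR5A integrants tested, 5 were called higher and none lower, where 3.78% of all 31441 integrants were called. The median log2 fold change was 3.41 over the 20 and -1.41 over all integrants. An integrant entered with at least 3 reads in 1 library of either group, which can be the group where it is higher. Such medians, here and in the later comparisons, partly reflect this filter and were not tested. LTR5A_1 had 4.67 and 3.77 RPM in hESC and 26.2, 38.0 and 49.9 in endoderm controls, a log2 fold change of 3.24 (SE 0.43, edgeR adjusted p 1.63e-11). It was thus detected in hESC already and carried most of the rise. LTR5A_2 had no read in hESC and 2.85, 2.09 and 2.87 RPM in endoderm controls, at least 39.5-fold higher against a floor of 3 reads over the group (edgeR adjusted p 1.60e-13). Like LTR5A_2, LTR5A_22 (chr1:113359400-113360425, 2367 bp from LINC01356) had no read in hESC, and reached 0.458, 0.139 and 0.427 RPM in endoderm controls, at least 5.07-fold higher (edgeR adjusted p 0.0256).

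The full proviruses stood at or below 0.133 RPM in hESC. LTR5A_5 went from 0.0425 and 0.0443 RPM to 1.12, 0.604 and 0.916, a log2 fold change of 4.23 (SE 0.98, edgeR adjusted p 0.000854). LTR5A_3 went from 0.0425 and 0.133 to 1.98, 0.372 and 0.733, a log2 fold change of 3.55 (SE 0.85, edgeR adjusted p 0.00155). The groups did not overlap at either provirus, although LTR5A_3 spread widely within the endoderm controls. With exon-overlapping integrants included, the groups did not overlap at 16 of 27 LTR5A integrants and at 25.4% of all integrants. Fitted with all integrants, the exon-overlapping LTR5A_4, LTR5A_7, LTR5A_9 and LTR5A_13 were also called higher in edgeR, with adjusted p of 8.53e-05, 1.96e-07, 1.59e-05 and 0.0399. That fit called 9 of 27 LTR5A integrants and 4.56% of all integrants. LTR5A_7 had no read in hESC and 1.17, 0.789 and 1.47 RPM in endoderm controls, at least 17.1-fold higher. LINC02018, host of LTR5A_9, had 0.282 ± 0.0222 CPM (SD, n = 2) in hESC and 1.54 ± 0.137 (SD, n = 3) in endoderm controls. ALG1L9P, host of LTR5A_7, had 0 and 0.0443 CPM in hESC and 0.0508, 0.0464 and 0 in endoderm controls. Reads of an integrant and of its host transcript cannot be told apart. The calls for LTR5A_3 and LTR5A_22 depended on single libraries. LTR5A_3 lost its call without endoderm control 1, and LTR5A_22 in 4 of the 5 fits that left out a library.

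**Figure D3:**
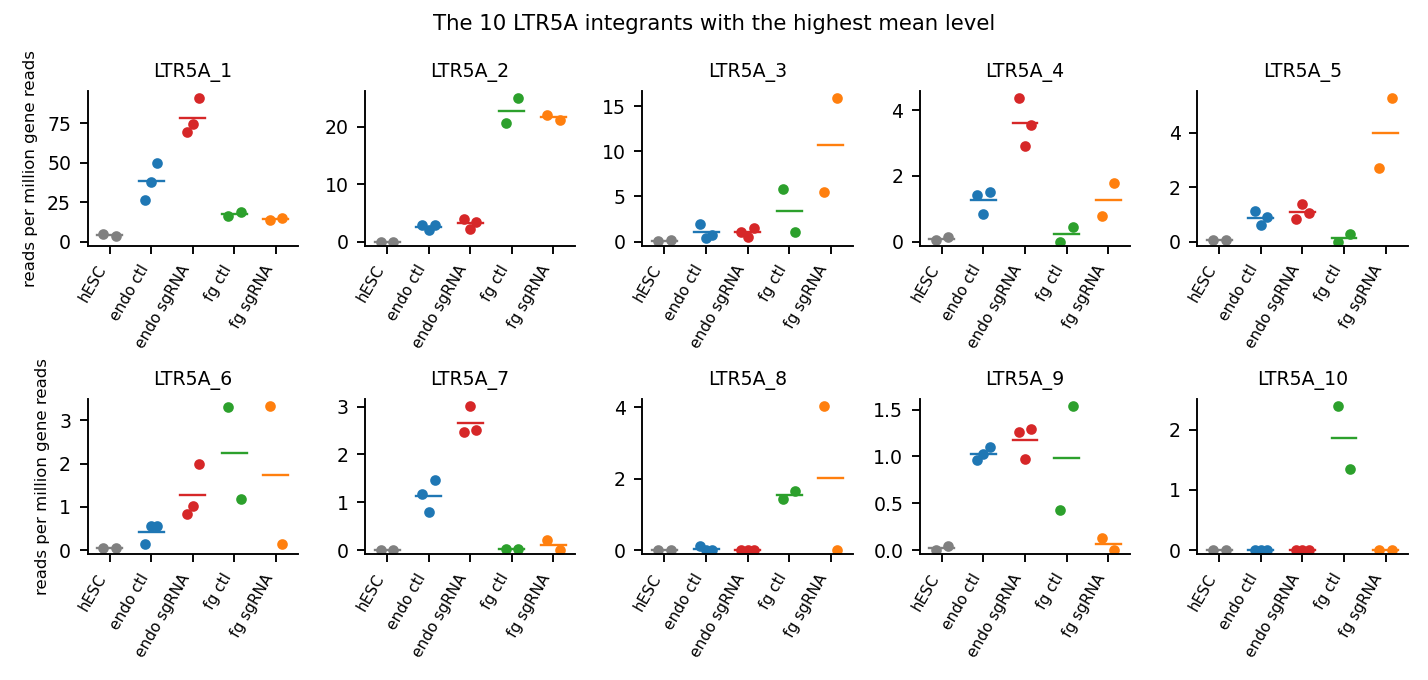
RPM of the 10 leading LTR5A integrants (panels) in each library (points) of the 5 groups (x axis; endo is endoderm, fg foregut and ctl control), with group means as lines. LTR5A_1 is highest in the endoderm sgRNA libraries, LTR5A_2 in the foregut libraries, and LTR5A_10 has reads in the 2 foregut controls only.

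Effects of the guide on integrants it does not match were asked by comparing endoderm sgRNA with endoderm control libraries. The LTR5A sum went from 49.7 ± 12.0 to 96.9 ± 11.8 RPM (SD, n = 3 each), and the groups did not overlap. The log2 fold change was 0.98 (SE 0.25, unadjusted p 0.000881, adjusted p 0.230 in edgeR), so that the sum did not pass the test over 1043 names. Of these 0% were called in edgeR and 0 in DESeq2 and limma-voom. At an unadjusted p under 0.05 there were 59 names, LTR5A stood at place 4 by p, and DESeq2 and limma-voom gave it adjusted p of 0.114 and 0.175. The median name changed by 0.24. Over the same libraries the LTR5B sum had a log2 fold change of -1.02 (adjusted p 0.460 in edgeR), and integrants of LTR5B with a perfect site had 2.95, 3.62 and 3.79 RPM in controls and 0.360, 1.78 and 1.21 with the guide. The ratio of LTR5A to LTR5B reads was 7.76, 8.49 and 11.4 in controls and 59.1, 27.3 and 36.5 with the guide. LTR5A_248, the LTR5A integrant with a perfect site, had no read in any library. It lies in the pseudoautosomal region that chromosome Y shares, where a read can map to both chromosomes.

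The higher sum rested on the same locus as before. LTR5A_1 had 26.2, 38.0 and 49.9 RPM in controls and 69.2, 74.6 and 91.2 with the guide, a log2 fold change of 1.06 (SE 0.37, unadjusted p 0.00435, adjusted p 0.635 in edgeR). The groups did not overlap. DESeq2 and limma-voom gave adjusted p of 0.0423 and 2.60e-11 for it, so the call depends on the tool. Without LTR5A_1 the sum had a log2 fold change of 0.70 (adjusted p 0.600 in edgeR). Of 22 LTR5A integrants tested in edgeR, 0 were called (0.0254% of all integrants were), 2 had an unadjusted p under 0.05, and DESeq2 and limma-voom each called 1. The 22 had a median log2 fold change of 0.33, against 0.19 over all integrants, with 15 above and 7 below 0.

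The next loci had values of the same kind at lower levels. LTR5A_6 had 0.153, 0.557 and 0.550 RPM in controls and 0.840, 1.02 and 1.99 with the guide (log2 fold change 1.59, unadjusted p 0.00873, adjusted p 0.635 in edgeR). The exon-overlapping LTR5A_4 had 1.42, 0.836 and 1.53 and then 4.38, 2.90 and 3.54 (log2 fold change 1.55, unadjusted p 0.000586, adjusted p 0.374). LTR5A_7 had 1.17, 0.789 and 1.47 and then 2.46, 3.01 and 2.50 (log2 fold change 1.24, unadjusted p 0.00826). None of these 3 overlapped between the groups, and altogether 5 of 28 LTR5A integrants and 6.07% of all integrants did not overlap. The groups overlapped at LTR5A_2, with 2.85, 2.09 and 2.87 RPM in controls and 3.90, 2.14 and 3.45 with the guide, and at LTR5A_9, LTR5A_3 and LTR5A_5. Of the 15 integrants with like flanks, LTR5A_1, LTR5A_4, LTR5A_6 and LTR5A_7 were thus without overlap, and LTR5A_2 and LTR5A_9 with it. LTR5A_46 (chr12:133670565-133673064, in ZNF140) had reads in 1 endoderm library only, at 0.360 RPM. Summed levels of 3 mesoderm markers, TBX6, MESP1 and HAND1, were 40.8, 22.2 and 45.0 CPM in controls and 91.5, 67.5 and 68.7 with the guide. None of the 3 was called in edgeR, where unadjusted p were 0.0795 for TBX6, 0.0240 for MESP1 and 0.000158 for HAND1. HAND1 had means of 16.8 and 45.0 CPM (log2 fold change 1.45, adjusted p 0.199 in edgeR). The part of these markers in the result was not tested. In edgeR 0.0343% of all genes were called in this comparison.

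Foregut controls were set against endoderm controls to follow the integrants through further differentiation. The LTR5A sum was 49.7 ± 12.0 RPM in endoderm (SD, n = 3) and 56.0 ± 2.17 in foregut (SD, n = 2), with a log2 fold change of 0.18 (SE 0.30, edgeR adjusted p 0.688), where 32.7% of names were called and the median name changed by 0.68. The foregut values lay inside the endoderm range. The make-up of the sum differed more. LTR5A_1 had 26.2, 38.0 and 49.9 RPM in endoderm controls and 16.0 and 18.8 in foregut controls (log2 fold change -1.13, SE 0.59, adjusted p 0.458 in edgeR), and its share of the LTR5A reads went from 67.1 to 80.4% in the former to 29.4 and 32.7% in the latter. LTR5A_2 had 2.85, 2.09 and 2.87 RPM and then 20.6 and 25.0, a log2 fold change of 3.13 (SE 0.57, edgeR adjusted p 2.50e-06), and its share went from 4.42 to 7.29% to 37.8 and 43.5%. The 2 groups did not overlap at either locus, nor, with exon-overlapping integrants included, at 16 of 41 LTR5A integrants and 22.1% of all integrants. With LTR5A_1 left out, the sum of the other integrants had a log2 fold change of 1.73 (adjusted p 0.000446), with LTR5A_2 left out -0.50 (adjusted p 0.244), and without both 0.82 (adjusted p 0.0686). The plot of sum fold changes with and without the 2 loci sets these values side by side.

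**Figure D4:**
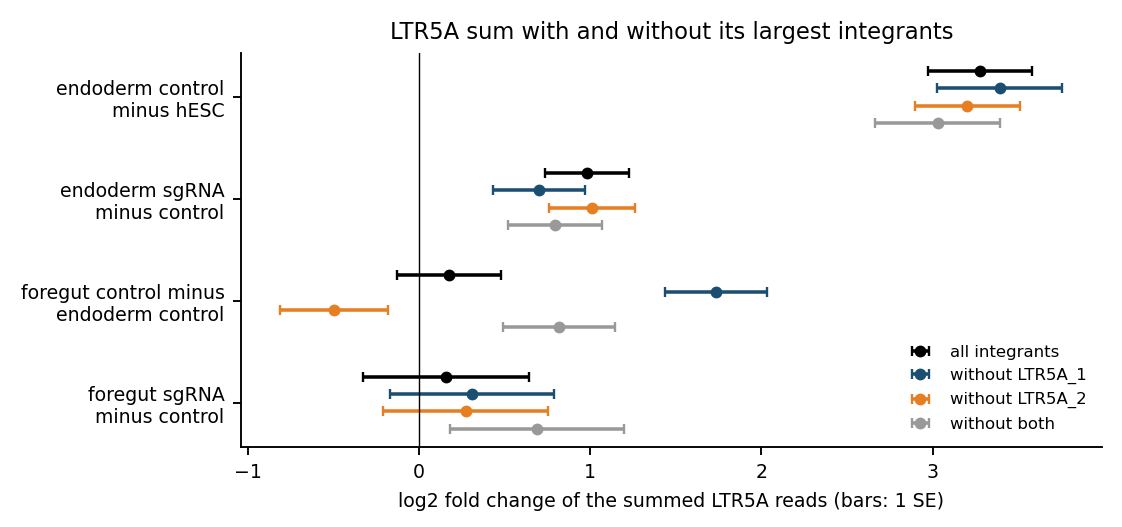
Log2 fold change of the LTR5A sum (x axis, error bars are 1 SE) in 4 comparisons (y axis), for all integrants and with LTR5A_1, LTR5A_2 or both left out. Foregut against endoderm control goes from 0.18 with all integrants to 1.73 without LTR5A_1 and -0.50 without LTR5A_2.

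Of 33 LTR5A integrants tested between these groups, 4 were called higher and none lower in edgeR, where 5.27% of all integrants were called. The 33 had a median log2 fold change of 1.81, and all integrants one of 4.08, both shaped by the read filter. Beside LTR5A_2, the 3 called were solitary LTRs. LTR5A_10 had no read in endoderm and 2.39 and 1.35 RPM in foregut controls, at least 35.2-fold higher (edgeR adjusted p 4.26e-07). LTR5A_8 had 0.102, 0 and 0 RPM and then 1.44 and 1.64, a log2 fold change of 5.31 (SE 1.26, edgeR adjusted p 0.000944). LTR5A_14 (chr7:6923006-6924020, 2749 bp from OR7E59P) had none and then 1.19 and 0.484, at least 15.7-fold higher (edgeR adjusted p 0.0134). LTR5A_8 and LTR5A_14 belong to the 37 solitary LTRs with like flanks. All 4 integrants were above 0 in both foregut controls. LTR5A_7 went the other way, from 1.17, 0.789 and 1.47 RPM to 0.0306 and 0.0269 (log2 fold change -5.09, SE 1.29, edgeR adjusted p 0.00243), in the fit with exon-overlapping integrants, which called 6 of 41 LTR5A integrants and 6.08% of all integrants. LTR5A_8 lost its call without endoderm control 2 or 3, LTR5A_14 without any 1 endoderm control, and 2 calls were left without endoderm control 2 (2.99% of all integrants called) or 3 (2.96%). With foregut control 1 or 2 left out, and the other assumed to vary like the endoderm controls, 10 of 32 and 10 of 22 integrants were called, LTR5A_1 as lower in both (edgeR adjusted p 0.0450 and 0.0313), where 35.0 and 46.9% of all integrants were. DESeq2 called 0 of the 33 integrants (0.256% of all), limma-voom 4 (6.51%), and the fit with a replicate block 0 (1.09%). Over 7 other settings of tool, library size, filter and block, LTR5A_1 was called lower in 1. LTR5A_2 and LTR5A_10 lost their call in 2 of these settings, and LTR5A_8 and LTR5A_14 in 3.

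With the guide in foregut, the LTR5A sum was 61.2 ± 2.44 RPM against 56.0 ± 2.17 in controls (SD, n = 2 each), without overlap. The log2 fold change was 0.16 (SE 0.49, edgeR adjusted p 0.998), 0.0976% of names were called and the median name changed by 0.27. LTR5A_1 had 16.0 and 18.8 RPM in controls and 13.5 and 15.1 with the guide, and LTR5A_2 had 20.6 and 25.0 and then 22.1 and 21.2. Of 30 LTR5A integrants tested in edgeR, 0 were called (0.00595% of all integrants were), 2 had an unadjusted p under 0.05, DESeq2 called 0 and limma-voom 1. The 30 had a median log2 fold change of -0.49, against -0.81 over all integrants, with 12 above and 18 below 0. Among the full proviruses, LTR5A_5 had 0 and 0.296 RPM in controls and 2.70 and 5.29 with the guide (log2 fold change 4.76, unadjusted p 0.0203, adjusted p 0.660 in edgeR), without overlap. LTR5A_3 had 5.82 and 1.05 and then 5.49 and 15.9 (log2 fold change 1.53, unadjusted p 0.0659), with overlap.

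LTR5A_10 was the integrant that limma-voom called. It had 78 and 50 reads in the foregut controls, 2.39 and 1.35 RPM, and none in the foregut sgRNA libraries, so that the controls were at least 32.2-fold higher (unadjusted p 0.0240, adjusted p 0.660 in edgeR, adjusted p 0.000441 in limma-voom). Its neighbour GSTA2 had the same pattern over the 12 libraries. GSTA2 had 29.2 and 21.0 CPM in foregut controls, 0.440 and 0.0480 in foregut sgRNA libraries, and at most 0.127 in the hESC and endoderm libraries. Its log2 fold change with the guide was -6.46 (SE 0.66, edgeR adjusted p 6.26e-19, where 0.165% of all genes were called), with an adjusted p of 1.78e-14 in DESeq2 and 0.365 in limma-voom. From endoderm to foregut controls it was 8.42 (SE 0.46, edgeR adjusted p 5.94e-06). The stretch of LTR5A_10 shown above lacks 1 base of the site. The closest integrant with a perfect site is an LTR5_Hs (chr6:52626628-52627596), 12525 bp from LTR5A_10, inside the GSTA2 gene, 677 bp from its start and outside its exons, and it had no read in the 12 libraries. The integrant lies past the 3′ end of the gene, and reads of the integrant and of transcripts running past the gene end cannot be told apart. For the other leading integrants, the closest perfect site was 85329 bp away at LTR5A_5, 106581 bp at LTR5A_9, 137974 bp at LTR5A_7 and at least 2.05 Mb at the rest. Sites with mismatches were not counted in these distances and can lie closer.

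**Figure D5:**
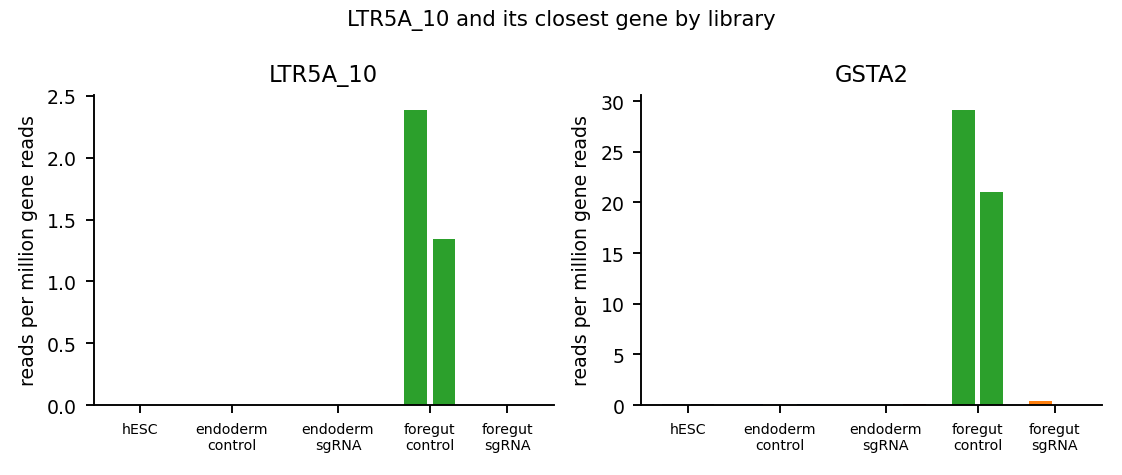
LTR5A_10 in RPM and GSTA2 in CPM (y axes) in each library (bars) of the 5 groups (x axis). Both are high in the 2 foregut controls and at or near 0 in the other 10 libraries.

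The difference between the effects of the guide in foregut and in endoderm was tested itself. For the LTR5A sum it was -0.84 on the log2 scale (SE 0.42, unadjusted p 0.0653, adjusted p 0.569 in edgeR), with 0.0928% of names and 0.0162% of integrants called. No difference between the stages was therefore shown.

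Among 12 genes for factors known to act on HERVK LTRs or to silence TEs, 3 rose and 3 fell from hESC to endoderm control. GATA4, GATA6 and SOX17, factors of endoderm, had no read in hESC and 239 ± 43.2, 366 ± 64.4 and 241 ± 42.6 CPM (SD, n = 3) in endoderm controls. SOX2 and KLF4, factors of pluripotency, and DNMT3B, a de novo DNA methyltransferase, fell, by log2 fold changes of -2.73, -1.67 and -2.45. From endoderm to foregut control SOX2 rose and 6 genes fell, POU5F1, NANOG, GATA6, SOX17, DNMT1 and DNMT3B. TRIM28 and SETDB1, through which KRAB acts, were called in neither comparison, since in the former TRIM28 fell by 0.68 and SETDB1 rose by 0.55 on the log2 scale (edgeR adjusted p 0.00562 and 0.0263), short of a fold of 2. With the guide, none of the factor genes was called in endoderm or in foregut by edgeR, with 1 in each at an unadjusted p under 0.05. These were NANOG, with 26.6 ± 4.96 CPM in endoderm controls and 12.8 ± 7.06 with the guide (SD, n = 3 each), and GATA4. GATA4 in foregut had 209 ± 3.93 CPM in controls and 103 ± 45.4 with the guide (SD, n = 2 each).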

How the data were processed

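The deposited tables hold counts of reads per gene and per TE integrant for the 12 bulk libraries. Per the study's methods, the authors made stranded poly(A) libraries, mapped them to hg19 with hisat2, counted with featureCounts and kept unique reads with a mapping quality over 10. The strand setting of the counting was not given in the sources used here. Members were the integrants whose name holds LTR5A. The members, lists and tests were chosen with earlier results of these data known. Levels are reads per 1000000 gene reads (RPM).

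Counts were tested with the quasi-likelihood test of edgeR 4.0.16 in R 4.3.3, with gene reads and their TMM factors as library size, on integrants that overlap no exon and hold at least 3 reads in 1 sample, or on sums per TE name. The p-values are 2-sided and adjusted by Benjamini-Hochberg over all features. Names were called at an adjusted p under 0.05, and integrants and genes also needed a fold over 2. DESeq2 1.42.0 and limma 3.58.1 (voom) were alternatives. Exon and gene overlaps were read from a GENCODE annotation lifted to hg19 with bedtools 2.31.1, flanks were compared with blastn 2.17.0 and the site of the sgRNA was aligned with edlib. Named integrants were the 10 with the highest mean over groups, those called, those with at most 1 mismatch to the sgRNA and the 3 with the smallest p per comparison. LTR5A_13 was named after its values were seen, as an exon-overlapping call.

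The labels call replicates separate samples, so p-values measure the spread between these samples only. Floors of 3 reads cover counting error alone. In simulated counts, 4-fold changes were placed only in the integrants with the most reads. They were recovered at 12% for endoderm control against hESC and 14% for the guide in endoderm. The rates were 0% for the guide in foregut and 1% for foregut against endoderm control. Integrants with fewer reads are not covered by these rates. For sums per name, 73, 77, 21 and 50% were recovered. Single-cell and gastruloid files were not used.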

Additional observations from a re-analysis of the deposited data

How the results depend on the processing

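The LTR5A sum kept its direction and its side of the threshold in most settings. Leaving out each library gave log2 fold changes of 3.03 to 3.44 for endoderm control against hESC, 0.83 to 1.22 for the guide in endoderm, 0.03 to 0.28 for the guide in foregut, 0.06 to 0.40 for foregut against endoderm control and -1.03 to -0.68 for the difference of the guide effects. With TE reads as library size the foregut guide effect was -0.26, and the median name then changed by -0.13 in place of 0.27. The foregut against endoderm value was 2.29 with integrants named LTR5A alone (1.61 for endoderm against hESC), 1.73 without LTR5A_1 and -0.50 without LTR5A_2. Reaching 50% of the reads of integrants named LTR5A alone took at most 7 loci, and reaching 80% of the reads of all LTR5A integrants at most 5. For LTR5A_2 the foregut guide effect ranged from -0.24 to 0.15 when a library was left out.

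Counts of called integrants moved more. For endoderm against hESC, 9 were called with exon-overlapping integrants (4.56% of all integrants), 9 at unadjusted p (3471 of 31441 integrants) and 2 with limma-voom (2.22%), which lost LTR5A_3, LTR5A_5 and LTR5A_22. For the guide in endoderm there were 2 at unadjusted p (2.86%), 1 with DESeq2 (0.0509%) and 1 with limma-voom (0.106%), and in foregut 2 at unadjusted p (0.444%) and 1 with limma-voom (0.775%). For foregut against endoderm there were 7 at unadjusted p (5216 of 44916 integrants), 0 with DESeq2 (0.256%), 0 with the replicate block (1.09%) and 2 to 10 when a library was left out (2.96 to 46.9%). Pairing by replicate number was checked by correlating same-numbered deviations from the group means over 9024 genes. Between the endoderm groups the values were -0.114, -0.0883 and -0.0425, and no library correlated best with its own number. They were -0.327 in foregut, 0.0326 and 0.0636 between hESC and endoderm control, and 0.240 and 0.196 between foregut and endoderm control. In a group of 2 libraries the deviations mirror each other, so pairing could not be decided in these comparisons. The block also took the call of LTR5A_22 in endoderm, changed no other call of a named integrant, and left sums of 3.03, 1.01, 0.15 and 0.41 for the 4 comparisons and -0.87 for their difference. In foregut, the crossed pairing called 0 LTR5A integrants and 1 of all integrants. The cause of these shifts was not tested. At the 169 LTR5A integrants without a read, no difference was detectable at this depth.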
